A study of Mus musculus with 2 samples.

Results

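The loci described here are 10 genes by which interneuron subtypes are told apart in the mouse forebrain: Lhx6, Nxph1, Crhbp, Sst, Pvalb, Adarb2, Prox1, Vip, Htr3a and Npy. They were listed by name with earlier results of these data known, and are 10 of 21728 protein-coding genes counted. Chromatin accessibility was read by single-cell ATAC-seq, in which a transposase inserts adapters where the DNA is not packed away and barcodes tell the nuclei apart. The level of a locus is the number of fragments that overlap its gene body plus 2 kb upstream, per 1000000 fragments of the same nuclei (CPM).

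Interneurons are inhibitory neurons that release GABA and act within their own circuit. Most forebrain interneurons are born in the medial ganglionic eminence (MGE) or the caudal ganglionic eminence (CGE) of the embryo. MGE-derived cells are marked by the LIM homeodomain factor Lhx6 and mature into parvalbumin or somatostatin cells. CGE-derived cells are marked by Adarb2 and the homeodomain factor Prox1, and include cells that make vasoactive intestinal peptide or the serotonin receptor subunit Htr3a. Neuropeptide Y is made by cells of both origins, so Npy was put in neither list.

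The study compared brains after experimental stroke with brains after sham surgery. All mice were wild-type C57BL/6J males aged 8 to 12 weeks, and all brains were taken 48 h after surgery without the olfactory bulbs and cerebellum. In the stroke group, the middle cerebral artery was occluded for 1 h with a filament and then reperfused, and ipsilateral hemispheres were used. In the sham group, the filament was inserted without sustained occlusion, and whole brains were used. Each group is 1 library made from 4 pooled brains, so there is no replicate, no test was run, and the library, the tissue taken and the surgery cannot be told apart. Every interval below is an exact 95% interval that covers counting error only.

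After the filter on nuclei (called as cells, more than 20% of fragments in peaks), 6817 sham nuclei and 5054 stroke nuclei were kept, with medians of 10353 and 9898 fragments. The filter kept 97.7% of called sham barcodes and 57.8% of called stroke barcodes, and 42 of the kept barcodes occur in both libraries. Nuclei were gated on marker loci that include none of the 10 genes. The gate on 12 GABAergic markers such as Gad1 and Gad2, with striatal projection neurons set apart by their own markers, held 251 sham nuclei (3.68%, interval 3.25 to 4.16) and 174 stroke nuclei (3.44%, interval 2.96 to 3.98). It is called GABAergic-type, because brain tissue holds GABAergic neurons other than interneurons. Each of its 12 markers was higher inside a gate made without that marker, by a median of 2.71-fold in sham and 2.99-fold in stroke. Dlx6 and its opposite-strand gene Dlx6os1 are both markers, and each stayed in the gate made without the other, so the check is weaker for this pair. The glutamatergic-type gate was weak (0 of 12 markers in sham and 4 of 12 in stroke passed 1.5-fold), as was the sham vascular-type gate (9 of 15 markers higher, 6 over 1.5-fold, median 1.16), and the sham myeloid-type gate gave mixed results: all 16 of its markers were higher, 13 over 1.5-fold (median 2.203), but 48 of its 60 nuclei left it when nuclei were reassigned by their profile over all genes.

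Most nuclei, 79.8% in sham and 77.0% in stroke, passed no gate. A second grouping took the gated nuclei as seeds. It assigned a nucleus to the class whose profile over all genes it matched best, by odds over 10. Every gene within 100 kb of any of the 10 loci was left out. The grouping placed 2033 sham and 1275 stroke nuclei in the GABAergic-type class, and 97 sham and 81 stroke nuclei in no class. The class then holds 29.8% of sham and 25.2% of stroke nuclei. Values from it are called profile-assigned. Both are given because the gate rests on fixed markers alone and the profile-assigned class holds more fragments in total. Per nucleus it holds fewer, with medians of 9125 in sham and 8357 in stroke against 12122 and 11291.5 in the gate. The marker check above was made for the gates only.

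The sequences of 3 windows inside genes and of 2 promoters are shown first (RefSeq GRCm38.p6, written 5′ to 3′ on the strand of the gene). Each is, or overlaps, a 300-base bin with more fragments of the MGE-type nuclei described below than the median bin of its locus. The windows are the 300-base bins with the most fragments on the MGE-type side at Lhx6, Crhbp and Pvalb, more than 1 kb from annotated coding starts. The promoters are the 250 bases before the RefSeq start of Sst and before the most upstream of 3 RefSeq starts of Lhx6. Capitals mark matches on either strand to any of 5 motifs: TGACGTCA, the cAMP response element, TATAAA, the TATA box, TAATTA, a homeodomain core, TGACTCA, the AP-1 site, and ACAAAG, a SOX core.

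Lhx6 bin, chr2:36091253-36091552, minus strand, over an exon 14.0 kb into the gene: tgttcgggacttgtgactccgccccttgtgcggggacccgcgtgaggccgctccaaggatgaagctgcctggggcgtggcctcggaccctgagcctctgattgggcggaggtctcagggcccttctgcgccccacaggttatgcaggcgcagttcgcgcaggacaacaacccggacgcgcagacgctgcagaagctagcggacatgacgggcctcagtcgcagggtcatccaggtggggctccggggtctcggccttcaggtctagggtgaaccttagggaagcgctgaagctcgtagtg
Crhbp bin, chr13:95439771-95440070, minus strand, over an exon 5.0 kb into the gene: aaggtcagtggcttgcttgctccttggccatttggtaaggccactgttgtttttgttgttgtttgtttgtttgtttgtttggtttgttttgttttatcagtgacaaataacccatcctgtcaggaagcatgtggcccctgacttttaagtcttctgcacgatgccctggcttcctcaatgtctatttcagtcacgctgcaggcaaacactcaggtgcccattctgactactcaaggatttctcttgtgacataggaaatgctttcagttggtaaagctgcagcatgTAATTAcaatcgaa
Pvalb bin, chr15:78195614-78195913, minus strand, in an intron 10.6 kb into the gene: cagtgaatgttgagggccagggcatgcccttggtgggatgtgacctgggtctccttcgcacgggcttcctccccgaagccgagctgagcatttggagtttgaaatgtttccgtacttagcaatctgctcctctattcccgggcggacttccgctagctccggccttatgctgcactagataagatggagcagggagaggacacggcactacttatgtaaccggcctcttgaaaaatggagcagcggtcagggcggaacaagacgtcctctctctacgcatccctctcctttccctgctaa
Lhx6 promoter, chr2:36105409-36105658, minus strand: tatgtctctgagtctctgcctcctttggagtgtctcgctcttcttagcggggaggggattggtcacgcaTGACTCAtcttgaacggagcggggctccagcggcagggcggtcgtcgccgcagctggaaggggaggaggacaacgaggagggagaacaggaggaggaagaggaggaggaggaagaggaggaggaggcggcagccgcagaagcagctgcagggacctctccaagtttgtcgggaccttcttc
Sst promoter, chr16:23890845-23891094, minus strand: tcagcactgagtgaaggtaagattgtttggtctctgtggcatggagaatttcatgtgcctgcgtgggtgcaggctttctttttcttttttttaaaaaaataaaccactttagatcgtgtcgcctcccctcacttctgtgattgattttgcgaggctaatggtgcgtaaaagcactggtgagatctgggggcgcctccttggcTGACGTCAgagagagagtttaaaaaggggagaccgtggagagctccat

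The cAMP response element in the Sst promoter begins 48 bases before the start site. Only exact matches were counted, and Sst was the only gene of the 9 with a RefSeq promoter here that holds TGACGTCA. The Vip promoter holds TGACGTCT, which differs in the last letter. Over 32841 RefSeq promoters of 300 bases, 1.79% hold TGACGTCA, while 13.6% hold the TATA box, 5.29% the homeodomain core, 5.204% the AP-1 site and 18.7% the SOX core. The printed Lhx6 promoter holds 1 AP-1 match, 181 bases before its start. Of the promoters at the other Lhx6 starts, the middle one holds no match to the 5 motifs and the most downstream one a TATA box and a SOX core. Of 3394 bins of 300 bases that tile the 10 windows, 12.5% hold the homeodomain core that occurs in the Crhbp bin. A match is a description of the letters in the window.

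The 10 loci differ widely in size, and this sets how many fragments each can give. Adarb2 (chr13:8202866-8768747, plus strand) has a window of 567.9 kb and Nxph1 (chr6:8948431-9249032, plus strand) one of 302.6 kb. Sst (chr16:23889573-23890958, minus strand) has a window of 3.4 kb, Npy (chr6:49822710-49829507, plus strand) 8.8 kb and Vip (chr10:5639218-5647617, plus strand) 10.4 kb. Between them are Prox1 (chr1:190118035-190170714, minus strand) at 54.7 kb, Lhx6 (chr2:36081953-36105408, minus strand) at 25.5 kb, Pvalb (chr15:78191114-78206400, minus strand) at 17.3 kb, Crhbp (chr13:95431371-95444924, minus strand) at 15.6 kb and Htr3a (chr9:48899213-48911099, minus strand) at 13.9 kb. Fragments have no strand, so those of Prox1 cannot be told apart from the antisense genes Prox1os and Gm28172, nor those of Htr3a from the antisense gene Gm32335. Smaller annotated features inside Lhx6 (Gm27953), Nxph1 (Gm35736) and Adarb2 (Gm48259, Gm48260, Gm48261, Gm48262 and Gm10357) are counted with them.

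The interneuron loci were more accessible in GABAergic-type nuclei than in the rest. With gates, the rest includes the nuclei that passed no gate. Of the 2033 sham and 1275 stroke nuclei profile-assigned to the GABAergic-type class, 222 and 142 came from its gate, so most of that class lies in the gated rest. Of the 10 loci, 8 were higher by more than 1.5-fold in both libraries, where 0.849% of 14140 genes tested were. With profile-assigned nuclei the count was also 8 of 10, against 1.63% of 17980 genes. The genes tested had at least 20 expected fragments in every group. Of the 10 loci 5 met that with gates, and 4 of these were past the fold; with profile-assigned nuclei 6 of 8 were. The loci outside the 8 were Pvalb and Vip with gates, and Pvalb and Prox1 with profile-assigned nuclei, each through the stroke library. After thinning each nucleus to 5000 fragments, the gated count of 8 fell to 4. All 20 profile-assigned values (10 loci in 2 libraries) had an interval over 1, as did 15 of the 20 gated values.

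Lhx6, a factor that MGE-derived interneurons need to mature, was at 25.3 CPM in gated GABAergic-type nuclei of sham (82 fragments, interval 20.1 to 31.4) and 37.8 CPM in stroke (76 fragments, interval 29.8 to 47.3). The rest of the nuclei were at 11.3 and 11.8 CPM, so the ratios were 2.24 (interval 1.77 to 2.82) and 3.21 (interval 2.49 to 4.07). The GABAergic-type gate was the highest of the 9 gates in both libraries, which also held for Adarb2 and Npy. Some of these gated intervals overlapped those of other classes. Examples are Lhx6 in sham with OPC-type (11.1 to 34.0 CPM) and Npy in stroke with oligodendrocyte-type nuclei (2.25 to 13.3 CPM). With profile-assigned nuclei the GABAergic-type class was the highest in both libraries for Adarb2 alone of these 3. A small vascular-type class, seeded in sham from a weak gate, then came above it for Lhx6, at 29.1 CPM (14 fragments) in sham and 27.7 CPM (33 fragments) in stroke, with intervals that overlap those of GABAergic-type nuclei at 21.96 and 26.02 CPM.

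Nxph1, which encodes the secreted neurexin ligand neurexophilin-1, was at 185 CPM in gated GABAergic-type nuclei of sham and 162 CPM in stroke. Its ratios to the rest were 2.85 (interval 2.61 to 3.10) and 2.28 (interval 2.03 to 2.55). It was not restricted to neurons in these data: OPC-type nuclei (oligodendrocyte precursors) were at 142 CPM in sham and 168 CPM in stroke. The OPC-type and GABAergic-type intervals overlap in stroke, and in sham they meet only at their edges (115 to 173 CPM against 171 to 201 CPM). With profile-assigned nuclei OPC-type was the higher for Nxph1, at 147.7 against 145.8 CPM in sham and 154.4 against 125.9 CPM in stroke, and in stroke the intervals (134.5 to 176.3 and 119.7 to 132.4 CPM) did not overlap.

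Crhbp, the binding protein that sequesters corticotropin-releasing hormone, was at 11.1 CPM in sham and 14.4 CPM in stroke, 1.96 times (interval 1.35 to 2.76) and 2.37 times (interval 1.56 to 3.47) the rest. Pvalb, which encodes the calcium buffer parvalbumin, was at 20.3 CPM in sham and 17.4 CPM in stroke. Its ratios were 1.77 (interval 1.35 to 2.27) and 1.44 (interval 0.995 to 2.03). With profile-assigned nuclei they were 1.57 and 1.41, the smallest of the 10 loci in each library. In stroke, 94 OPC-type nuclei gave Pvalb 29.1 CPM (26 fragments, interval 19.0 to 42.6), higher than the GABAergic-type value with an interval that overlaps it. Sst, the gene for somatostatin, gave only 9 fragments in sham and 3 in stroke (2.77 and 1.49 CPM), and its ratios of 1.80 and 1.52 had intervals that span 1. With the larger profile-assigned class the Sst ratios were 3.51 (67 fragments, interval 2.39 to 5.16) and 2.41 (22 fragments, interval 1.33 to 4.31).

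Adarb2, an RNA-editing family member without known editing activity, had the highest level of the 10 loci, on a scale that is not per length: 292 CPM in sham and 221 CPM in stroke, 2.37 times (interval 2.21 to 2.53) and 1.57 times (interval 1.43 to 1.73) the rest. OPC-type nuclei came next for Adarb2, at 182.3 CPM in sham and 215.9 CPM in stroke, where the intervals overlapped (186.5 to 248.6 against 200.9 to 242.5 CPM). With profile-assigned nuclei OPC-type was at 185.3 against 208.4 CPM in sham and 196.3 against 202.3 CPM in stroke, with intervals that overlap in both libraries. Prox1 was at 32.4 and 31.4 CPM, 2.81 times (interval 2.27 to 3.45) and 1.89 times (interval 1.44 to 2.44) the rest. Glia of the oligodendrocyte lineage were higher still for Prox1: OPC-type nuclei were at 49.2 CPM in both libraries, and oligodendrocyte-type nuclei were at 36.6 CPM in sham and 65.4 CPM in stroke. Of these, the stroke oligodendrocyte-type interval (50.4 to 83.5 CPM) lay above the GABAergic-type one (24.1 to 40.1 CPM), and the others overlapped it. With profile-assigned nuclei all 4 lay above it: GABAergic-type nuclei were at 22.1 and 22.7 CPM for Prox1, OPC-type at 46.6 and 40.55 CPM, and oligodendrocyte-type at 52.1 and 63.8 CPM. Stroke myeloid-type nuclei, at 30.7 CPM (interval 26.3 to 35.6), were above it too.

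Htr3a was at 7.71 CPM in sham and 7.46 CPM in stroke, 1.73 times (interval 1.102 to 2.60) and 1.74 times (interval 0.956 to 2.93) the rest. Other classes were higher for Htr3a: the ependymal-type gate in sham, at 18.8 CPM (7 fragments), and OPC-type nuclei in stroke, at 12.3 CPM (11 fragments), with intervals that overlap the GABAergic-type ones. With profile-assigned nuclei the GABAergic-type class ranked 4 in sham for Htr3a, and the ependymal-type interval (21.02 CPM, 11 fragments, 10.5 to 37.6 CPM) lay above its own (6.65 CPM, 5.57 to 7.87 CPM). Npy was at 12.6 CPM in sham and 7.46 CPM in stroke, 3.79 times (interval 2.65 to 5.30) and 1.82 times (interval 1.001 to 3.08) the rest. Vip gave 9 fragments in sham and 3 in stroke, so its gated ratios of 2.44 (interval 1.07 to 4.86) and 0.947 (interval 0.191 to 2.87) are imprecise. With profile-assigned nuclei they were 2.80 (interval 1.81 to 4.34) and 2.03 (interval 1.26 to 3.22), and those of Npy were 2.597 and 2.57. OPC-type nuclei then had the highest Npy level, at 10.7 CPM in sham and 8.54 CPM in stroke (12 fragments each), with intervals that overlap those of GABAergic-type nuclei at 6.75 and 8.01 CPM.

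Per kb of window the order of the loci changes. In gated sham GABAergic-type nuclei Npy (1.44 CPM per kb), Pvalb (1.18) and Lhx6 (0.993) were highest, Sst was at 0.819 and Crhbp at 0.714, and Vip was lowest at 0.267 CPM per kb. Adarb2, at 0.514 CPM per kb, fell below Nxph1 (0.612) and Prox1 (0.592). In stroke Lhx6 (1.49 CPM per kb) and Pvalb (1.01) led and Vip (0.144) was again lowest. Sst and Vip rest on so few fragments that their places in the order are not resolved.

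**Figure D1:**
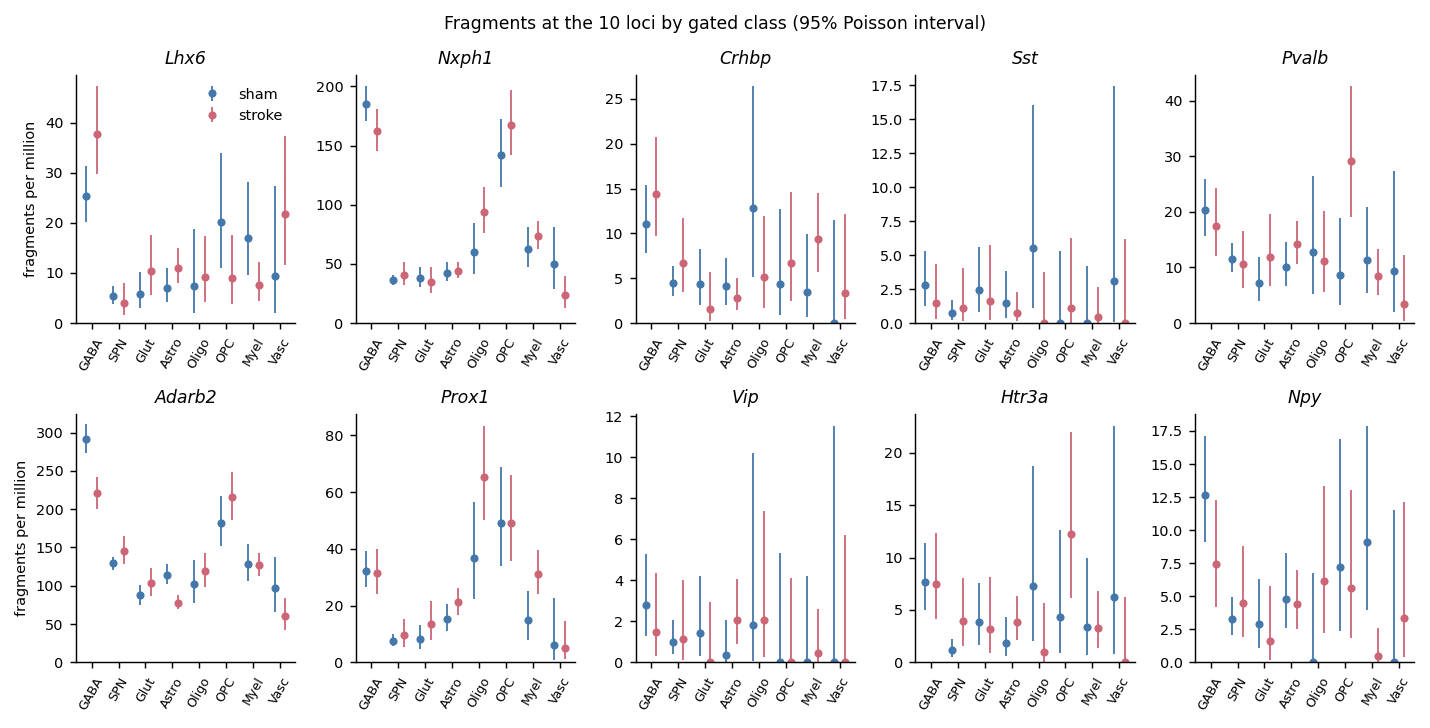
CPM at each of the 10 loci (y axis, 1 panel per locus, axes start at 0) in gated classes (x axis: GABAergic-type, striatal projection neuron-type, glutamatergic-type, astrocyte-type, oligodendrocyte-type, OPC-type, myeloid-type and vascular-type; the ependymal-type gate, with 7 stroke nuclei, is not drawn) for sham (blue) and stroke (red); bars are 95% Poisson intervals. Lhx6 is highest in GABAergic-type nuclei at 25.3 and 37.8 CPM, while Prox1 is higher in OPC-type nuclei at 49.2 CPM.

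Whether the loci sort into the lineages that their names stand for was asked inside the GABAergic-type nuclei. The fragments of a nucleus at Lhx6, Nxph1, Crhbp, Sst and Pvalb were set against those at Adarb2, Prox1, Vip and Htr3a. A nucleus was put on an MGE-type side when the share of the former was above that of the class. It was put on a CGE-type side when the share of the latter was, and otherwise on neither. Nxph1 (601 fragments in gated sham nuclei) and Adarb2 (947) gave most of these fragments, and Prox1 (105) came next. The locus reported was always left out of the gate, so its own fragments did not place any nucleus. With no locus left out, 81 sham and 57 stroke nuclei were on the MGE-type side and 62 and 23 on the CGE-type side; profile-assigned sides held 464 and 215 against 136 and 44.

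With gates, 5 of the 9 listed loci were over 1.5-fold higher on their own side in both libraries: Lhx6, Crhbp and Pvalb on the MGE-type side, and Adarb2 and Prox1 on the CGE-type side. The count was 0 of 9 with promoter windows (2 kb upstream to 500 bp downstream of the start), which hold few fragments, and 2 of 9 with sides gated on other genes of the lineages. Of 2653 genes tested, 4.11% were higher by that fold on the MGE-type side and 1.85% on the CGE-type side. With profile-assigned nuclei it was 6 of 9, Htr3a being added, where 3.6% and 1.98% of 4804 genes were. Those genes helped to place the profile-assigned nuclei. The 10 loci and their neighbours were left out of the profiles, but the seeds of the sides were gated on the listed loci other than the one reported. The bar of 20 expected fragments in every group was one that Nxph1 and Adarb2 met with gates, and these and Lhx6 with profile-assigned nuclei, so the share is a guide for these 3 and the interval is the measure for the others.

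With the libraries summed, Crhbp had the largest difference in both groupings. Gated MGE-type nuclei gave 17.5 CPM in sham (19 fragments) and 26.6 CPM in stroke (18 fragments), and CGE-type nuclei gave 3.64 CPM (3 fragments) and 3.36 CPM (1 fragment). The intervals of the ratio were 1.42 to 25.4 in sham and 1.25 to 329 in stroke. The profile-assigned values rest on more fragments: 104 against 6 in sham and 64 against 2 in stroke, or 20.8 against 4.37 CPM and 26.5 against 4.29 CPM. Summed over the libraries the ratio was 5.201 (interval 2.58 to 12.2).

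Lhx6 was at 32.0 CPM (31 fragments) on the gated MGE-type side of sham and 61.5 CPM (38 fragments) in stroke, against 19.0 CPM (17 fragments) and 26.7 CPM (10 fragments) on the CGE-type side. The sham ratio of 1.69 had an interval of 0.904 to 3.25 and the stroke ratio of 2.30 one of 1.13 to 5.18. Profile-assigned sides separated further, at 49.5 against 15.1 CPM in sham (ratio 3.28, interval 2.14 to 5.24) and 66.6 against 23.1 CPM in stroke (ratio 2.88, interval 1.63 to 5.54). GABAergic-type nuclei on neither side were at 15.6 and 18.9 CPM, close to the CGE-type side. Among 6323 genes tested between these sides, 5 had a larger mean log2 difference towards the MGE-type side than Lhx6 (1.62).

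Pvalb was at 33.3 CPM on the gated MGE-type side of sham and 35.3 CPM in stroke, and at 12.9 and 3.20 CPM on the CGE-type side, the last from 1 fragment. The ratios were 2.58 (interval 1.28 to 5.64) and 11.03 (interval 1.80 to 454). Profile-assigned nuclei gave 28.1 against 15.5 CPM and 38.2 against 10.2 CPM, ratios of 1.81 (interval 1.16 to 2.96) and 3.74 (interval 1.54 to 11.8). Pvalb therefore lay on its own side in all 4 comparisons, which are not independent because the gated nuclei seeded the profile-assigned sides.

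Nxph1 differed little between the sides. Its gated levels were 273 against 207 CPM in sham (ratio 1.32, interval 1.04 to 1.69) and 192 against 155 CPM in stroke (ratio 1.24, interval 0.816 to 1.92). Nuclei on neither side were at 154 and 155 CPM, below both sides in sham and level with the CGE-type side in stroke. The profile-assigned ratios were 1.17 (interval 0.991 to 1.38) and 1.67 (interval 1.18 to 2.43). With libraries summed, the gated ratio of 1.25 (interval 1.02 to 1.55) turned to 0.887 with a stricter gate, which asks for more marker fragments per nucleus (interval 0.682 to 1.16) and to 0.799 with fragments too short to span a nucleosome (interval 0.601 to 1.06). Of 2458 genes tested between the profile-assigned sides, 494 had a larger mean difference towards the MGE-type side.

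Sst could not be placed. It gave 4 and 2 fragments on the gated MGE-type and CGE-type sides of sham and 1 and 2 in stroke. With profile-assigned nuclei it was at 6.58 CPM (34 fragments) against 1.34 CPM (2 fragments) in sham, a ratio of 4.91 (interval 1.26 to 42.1). In stroke it was at 2.77 CPM (7 fragments) against 7.44 CPM (4 fragments), a ratio of 0.373 (interval 0.0947 to 1.74). Summed over the libraries the ratio was 1.80 (interval 0.761 to 5.19).

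On the CGE-type side, Adarb2 was at 573.6 CPM in gated sham nuclei (196 fragments) and 379.5 CPM in stroke (85 fragments), against 217.5 CPM (39 fragments) and 165.5 CPM (15 fragments) on the MGE-type side. The ratios towards its own side were 2.64 (interval 1.86 to 3.82) and 2.29 (interval 1.31 to 4.28). Without Adarb2 the gate has few fragments to work with, and the sides held 26 and 18 nuclei against 12 and 6; the profile-assigned MGE-type side again held 12 and 6. Of 332 genes tested between those profile-assigned sides, 6 had a larger mean difference towards the CGE-type side than Adarb2 (1.39 on the log2 scale).

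Prox1 was at 57.1 CPM (47 fragments) on the gated CGE-type side of sham and 37.2 CPM (12 fragments) in stroke, against 23.7 and 10.7 CPM on the MGE-type side. The ratios were 2.41 (interval 1.45 to 4.08) and 3.47 (interval 1.26 to 10.4). After thinning to 5000 fragments per nucleus, the ratio with libraries summed was 0.964 with an interval of 0.129 to 7.2, so its direction was not kept. Profile-assigned nuclei gave 62.8 against 14.9 CPM in sham, a ratio of 4.22 (interval 3.05 to 5.88), and 44.7 against 17.97 CPM in stroke, a ratio of 2.49 (interval 1.41 to 4.28).

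Htr3a and Vip were sparse. Gated Htr3a counts were 7 on the CGE-type and 10 on the MGE-type side of sham, and 2 on each side of stroke. Profile-assigned nuclei set them apart in sham, at 23.8 CPM (32 fragments) against 5.14 CPM (24 fragments), a ratio of 4.63 (interval 2.64 to 8.21). In stroke the Htr3a levels were 15.4 CPM (7 fragments) and 6.40 CPM (15 fragments), with an interval of 0.830 to 6.27. Vip gave 3 fragments on each gated side of sham and 0 in stroke. Its profile-assigned levels in sham, 5.74 CPM (8 fragments) and 3.05 CPM (14 fragments), did not separate. In stroke Vip had 0 fragments on the CGE-type side, where 3 counts would be 6.62 CPM and the interval reaches 8.14 CPM, and 2.15 CPM (5 fragments) on the MGE-type side.

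Npy, which was not used to place any nucleus, was higher on the CGE-type side in profile-assigned sham nuclei, at 20.8 CPM (29 fragments) against 9.01 CPM (45 fragments), a ratio of 2.31 (interval 1.40 to 3.76). In stroke the levels were 22.1 CPM (10 fragments) and 11.7 CPM (28 fragments), a ratio of 1.89 (interval 0.821 to 4.02). The gated values pointed the same way, 17.0 against 9.31 CPM and 10.1 against 5.73 CPM, with intervals that span 1. Both sides were above nuclei on neither side, which were at 4.81 and 6.39 CPM with profile-assigned nuclei. With gates, nuclei on neither side lay between the sides, at 12.65 and 7.89 CPM.

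**Figure D2:**
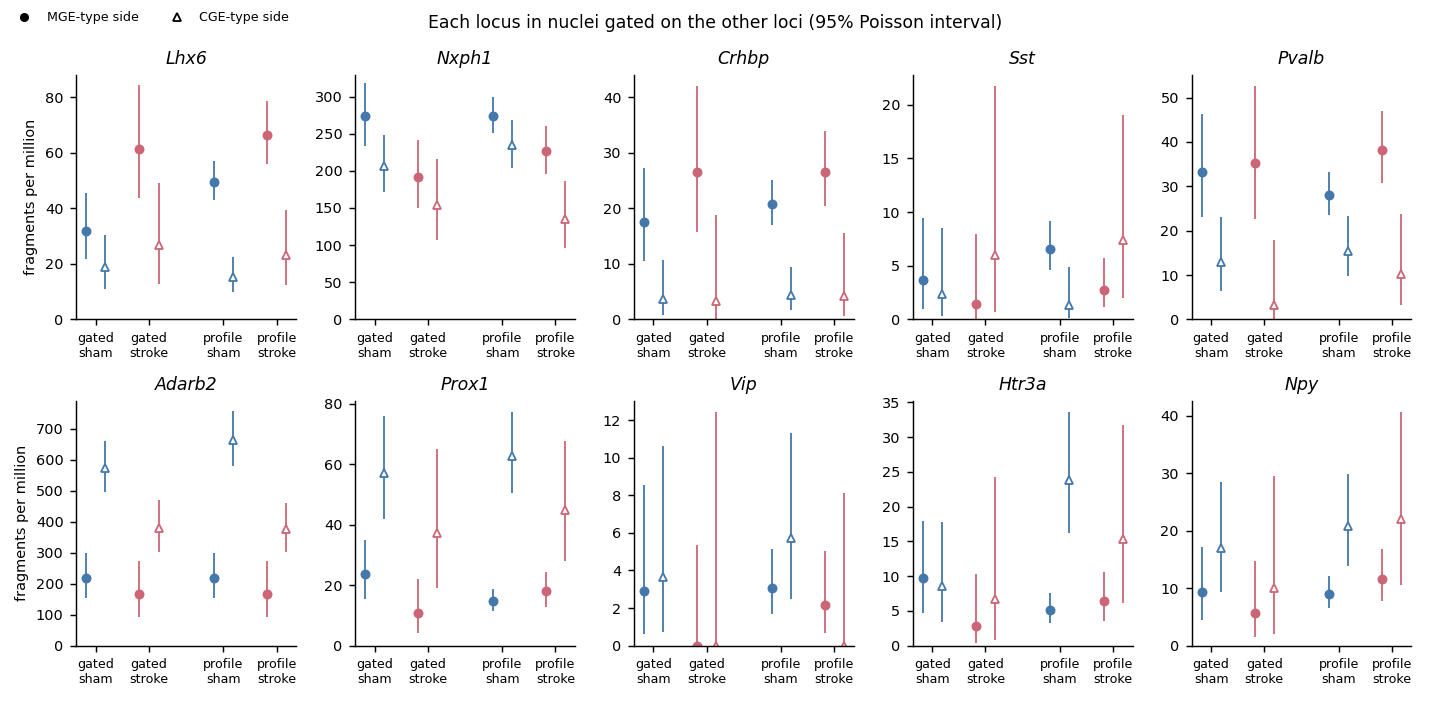
CPM (y axis, 1 panel per locus, axes start at 0) on the MGE-type side (filled circles) and the CGE-type side (open triangles) of sham (blue) and stroke (red), for gated and profile-assigned nuclei (x axis); bars are 95% Poisson intervals and the locus shown was left out of the gate. Circles lie above triangles for Lhx6, Nxph1, Crhbp and Pvalb, and below them for Adarb2, Prox1 and Npy, in all 4 comparisons. The gated and profile-assigned sides share nuclei.

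Other genes known from the 2 lineages were read between the same sides. Of 20 MGE-type genes, 8 had at least 20 fragments on each gated side of both libraries, and 1 was over 1.5-fold higher on the MGE-type side in both: Sox6, a SOX factor needed for MGE-derived interneurons, at 252 against 87.3 CPM in sham and 288 against 118 CPM in stroke. None of the 8 was higher by that fold on the CGE-type side in both libraries. Reln and Zfhx3 were past it there in stroke (2.03 and 2.06) and leaned that way in sham (1.32 and 1.44). Btbd11 was past it towards the MGE-type side in stroke alone (2.001). The median mean log2 difference of the 8 was -0.02, beside 0.06 over all genes tested. These medians rest on unlike bars. List genes needed 20 observed fragments on each side, which drops genes that are low on 1 side, and all genes needed 20 expected fragments. Of 22 CGE-type genes, 3 had enough fragments, and 1 was over 1.5-fold higher on the CGE-type side: Sv2c, a synaptic vesicle protein, at 174 against 96.8 CPM and 225 against 103 CPM. Their median was -0.54. Some genes with under 20 fragments on a side, which were not counted, were past 1.5-fold towards their own gated side in both libraries. These were Syt2, Kcnc2 and Satb1 of the MGE-type list and Nr2f1, Sp8 and Lamp5 of the CGE-type list. Syt2 and Kcnc2 had 178 and 157 fragments on the MGE-type side of sham. They missed the bar with 17 and 19 on the CGE-type side of stroke. Id2 of the CGE-type list (1.575 and 1.562 towards the MGE-type side) and Nkx2-1 of the MGE-type list (0 fragments on that side and 4 on the other in each library) went the opposite way. With profile-assigned nuclei, which these genes helped to place, the counts were 3 of 10 (Sox6, Syt2 and Kcnc2, the last a potassium channel subunit of fast-spiking cells) and 2 of 6 (Cnr1, the cannabinoid receptor, and Sv2c).

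Signal along the loci was read with profile-assigned nuclei, summed over the libraries, again with the locus left out of the gate. The Lhx6 bin printed above, over an exon 14.0 kb into the gene, had 29 fragments on the MGE-type side, 15 in sham and 14 in stroke, and 1 on the CGE-type side. These are 4.85 and 0.465 CPM, and nuclei outside the GABAergic-type class were at 0.207 CPM in sham and 0.343 in stroke. The bin at the Lhx6 start site had 27 fragments on the MGE-type side, 22 in sham and 5 in stroke, and 1 on the CGE-type side. The median of the 84 bins of the Lhx6 window was 4 fragments on the MGE-type side. The distal bins were chosen for their fragments on the own side, so these values are a description.

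The Crhbp bin, 5.0 kb into the gene, had 30 fragments on the MGE-type side (20 in sham and 10 in stroke) and 1 on the CGE-type side, 4.04 against 0.544 CPM. The start site of Crhbp had 7 fragments and 0, so at Crhbp the bin inside the gene held more of the signal than the start site. Along Pvalb the 0.5 kb step centred 2.25 kb into the gene, near its second annotated start, held 28 fragments on the MGE-type side and 6 on the CGE-type side (7.63 and 6.08 CPM per kb). The step at 10.75 kb held 28 and 2. The Pvalb bin, in an intron 10.6 kb into the gene, had 26 fragments on the MGE-type side (19 in sham and 7 in stroke) and 2 on the CGE-type side, and the first Pvalb start site had 1 and 0. Outside the GABAergic-type class the Pvalb bin was at 0.790 CPM in sham and 0.834 in stroke.

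At Sst the start-site bin, which overlaps the promoter printed above, held 25 of the 41 fragments of the MGE-type side, 22 in sham and 3 in stroke, against 2 of the 6 on the CGE-type side. At Npy the start-site bin held 55 fragments in GABAergic-type nuclei (1.70 CPM) against 70 in all other nuclei (0.745 CPM). A bin in a Npy intron 6.0 kb into the gene held 29 fragments against 9, or 0.898 against 0.0958 CPM. It was chosen among 29 bins for its fragments in GABAergic-type nuclei, so this is a description. By library the levels were 0.689 against 0.0753 CPM in sham and 1.25 against 0.123 CPM in stroke.

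Bins at the CGE-type loci rest on few fragments, from sides that held fewer nuclei than the MGE-type sides above. The leading distal bin of Prox1, 32.7 kb into the gene in an intron, had 5 fragments on the CGE-type side (2.64 CPM) and 2 on the MGE-type side (0.289 CPM), and that of Htr3a, in an intron 6.0 kb into the gene, had 4 (2.22 CPM) and 0. At Adarb2, where the sides are smallest, the start-site bin had 8 fragments on the CGE-type side (13.9 CPM) and 2 on the MGE-type side (7.41 CPM), and was at 6.04 CPM in sham and 4.90 CPM in stroke outside the class. No Adarb2 bin away from the start held more than 3 fragments on the CGE-type side (5.23 CPM), and the median of its 1892 bins was 0. The start sites of Prox1 and Htr3a were open outside the class as well, at 0.847 and 1.03 CPM for Prox1 and 1.36 and 1.05 CPM for Htr3a.

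**Figure D3:**
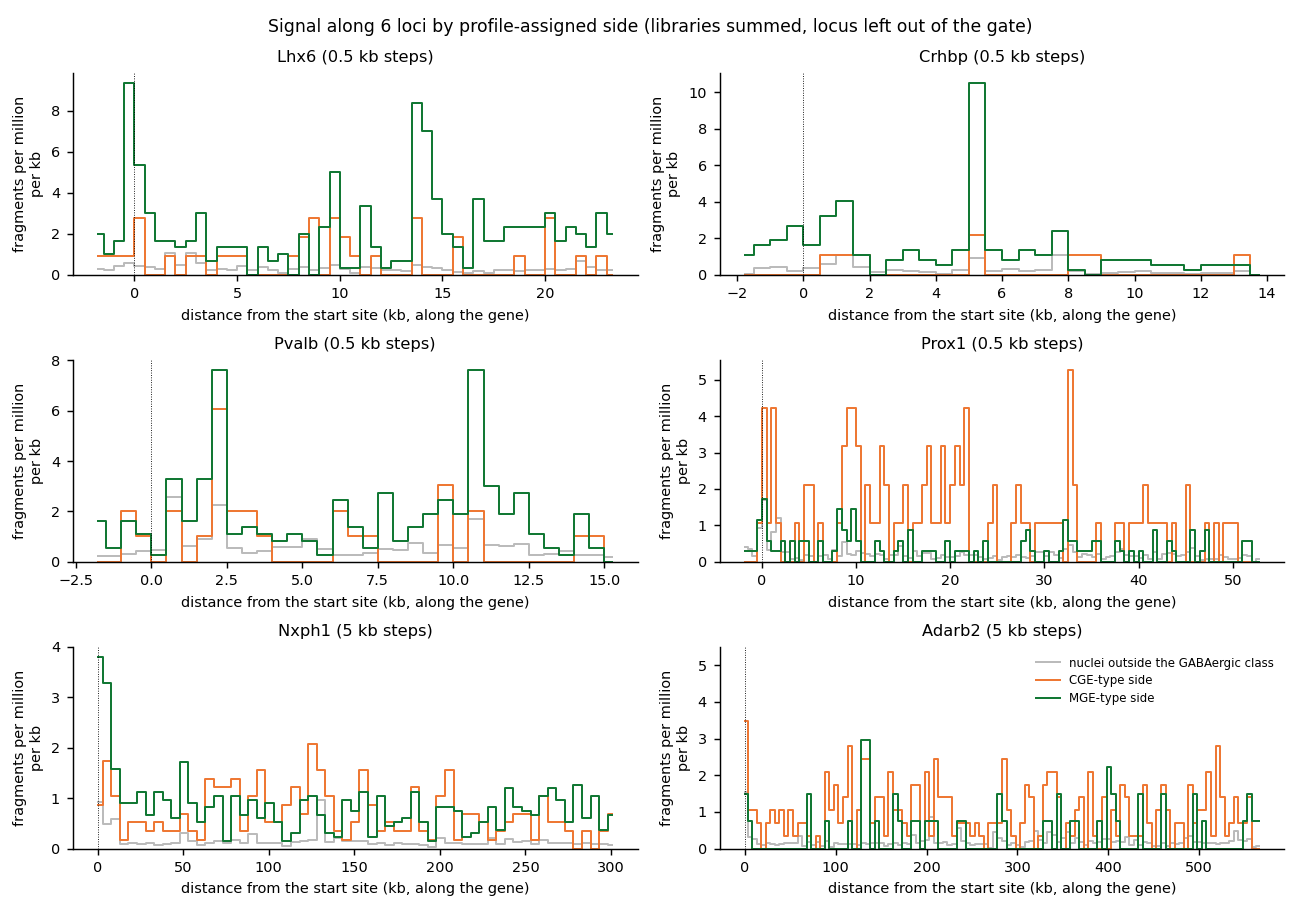
CPM per kb (y axis, starts at 0) by the distance of the fragment midpoint from the start site along the gene (x axis, kb) for Lhx6, Crhbp, Pvalb and Prox1 in steps of 0.5 kb and for Nxph1 and Adarb2 in steps of 5 kb, on the MGE-type side (green), the CGE-type side (orange) and in nuclei outside the GABAergic-type class (grey), libraries summed. MGE-type signal stands at the start and 14.0 kb into Lhx6, 5.0 kb into Crhbp and 2.25 and 10.6 kb into Pvalb, the former with CGE-type signal as well, while the orange line of Prox1 is above the green one over much of the gene.

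The loci were then paired within single nuclei. For each ordered pair, the level of a locus in GABAergic-type nuclei with at least 2 fragments at the other was divided by its level in nuclei with 0 there. In gated nuclei, libraries summed, 22 of the 32 ordered pairs within a lineage were above 1 and 16 were over 1.5-fold, with a median of 1.63; of the 40 pairs across lineages, 7 were above 1 and 4 over 1.5-fold, with a median of 0.542. Over all genes and marking loci 7.6% of 44833 values were over 1.5-fold. With profile-assigned nuclei, 30 of 32 pairs within a lineage were above 1 and 25 over 1.5-fold (median 1.84), against 6 and 1 of 40 across lineages (median 0.655), and 3.02% of 97455 values over all genes were over 1.5-fold. The shares over all genes cover only genes with enough fragments, such as 46 genes for the 2 gated nuclei marked by Sst. No such bar was set for the pairs of loci, some of which rest on few or 0 fragments. The shares are therefore not like for like with the pair counts. The intervals of the pairs within a lineage lay above 1 for 9 of the 32 with gates and for 23 with profile-assigned nuclei. With gates, 1 pair within a lineage had an interval below 1, Nxph1 in nuclei marked by Lhx6 (0.749 times, interval 0.571 to 0.968). Of the gated pairs across lineages 1 had an interval above 1, Nxph1 in the 5 nuclei marked by Htr3a (2.73 times, interval 1.89 to 3.83). In single libraries with gates, 21 of the 32 were above 1 in sham (median 1.82) and 15 in stroke (median 1.31). With promoter windows the gated count of 22 fell to 2, and after thinning to 6. The ordered pairs share loci and nuclei, so they are not independent.

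Of the ratios that rest on more than 5 fragments, the highest was that of Crhbp in nuclei marked by Sst. In 9 profile-assigned nuclei with at least 2 Sst fragments, Crhbp was at 75.4 CPM (9 fragments), against 10.4 CPM in 3228 nuclei without, a ratio of 7.22 (interval 3.27 to 13.9). Read the other way, Sst was at 10.7 CPM (9 fragments) in 60 nuclei marked by Crhbp and 2.37 CPM in the others, a ratio of 4.497 (interval 1.97 to 9.05). Of those 9 Sst fragments, 8 came from sham. Crhbp and Lhx6 went together in both libraries: Lhx6 was 2.55 times (interval 1.70 to 3.70) as high in sham nuclei marked by Crhbp and 2.96 times (interval 1.75 to 4.71) in stroke.

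Pvalb and Sst, which mark separate MGE-derived types, were the 1 pair within that lineage below 1 in both orders. Sst had 1 fragment in 92 nuclei marked by Pvalb (0.750 CPM) against 85 in nuclei without (3.06 CPM), a ratio of 0.245 (interval 0.00614 to 1.40). Pvalb had 0 fragments in the 9 nuclei marked by Sst. Both intervals reach past 1, so with this mark a difference was not detectable. With 1 fragment as the mark, both intervals lay below 1: Sst was 0.292 times (4 fragments, interval 0.0778 to 0.776) as high in 337 nuclei marked by Pvalb, and Pvalb 0.303 times (5 fragments, interval 0.0979 to 0.712) as high in 80 nuclei marked by Sst. In gated nuclei the pair shared 0 fragments in either order with that mark, and the intervals reached 1.94 and 1.14. Pvalb and Nxph1 did go together: Nxph1 was 1.99 times (interval 1.74 to 2.27) as high in sham nuclei marked by Pvalb and 1.62 times (interval 1.28 to 2.03) in stroke.

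Among CGE-type loci, Adarb2 was 1.92 times (interval 1.74 to 2.11) as high in sham nuclei marked by Prox1 and 1.62 times (interval 1.40 to 1.88) in stroke. Vip was at 7.11 CPM (14 fragments) in 139 nuclei marked by Prox1 and 2.02 CPM without, and the ratio was 3.56 (interval 1.496 to 7.64) in sham and 3.51 (interval 1.04 to 9.49) in stroke. Vip was also at 14.7 CPM (6 fragments) in 33 nuclei marked by Htr3a, 6.75 times (interval 2.39 to 15.5) its level in the others. In nuclei marked by Adarb2, Vip was at 1.19 times (interval 0.719 to 2.01) its level in the others. With gates the Vip ratios were 2.33 in nuclei marked by Prox1 (3 fragments, interval 0.406 to 9.33) and 0.597 in those marked by Adarb2 (interval 0.160 to 2.23), and nuclei marked by Htr3a held 0 Vip fragments.

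Across lineages, Adarb2 was 0.645 times (interval 0.554 to 0.747) as high in sham nuclei marked by Lhx6 and 0.692 times (interval 0.566 to 0.838) in stroke. In nuclei marked by Crhbp, Adarb2 was at 94.9 against 219 CPM in sham and 54.8 against 210 CPM in stroke. Of the 6 pairs across lineages that were above 1 with profile-assigned nuclei, none had an interval over 1, and 3 rest on 28 fragments or more. These were Prox1 and Vip in nuclei marked by Nxph1, and Nxph1 in nuclei marked by Prox1, which was at 151.4 CPM in each library against 140.3 CPM in sham and 124.5 CPM in stroke. Npy paired with loci of both lineages: it was 2.06 times (interval 1.32 to 3.10) as high in nuclei marked by Prox1, 1.91 times (interval 1.22 to 2.87) in those marked by Lhx6 and 5.99 times (5 fragments, interval 1.93 to 14.2) in those marked by Sst.

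**Figure D4:**
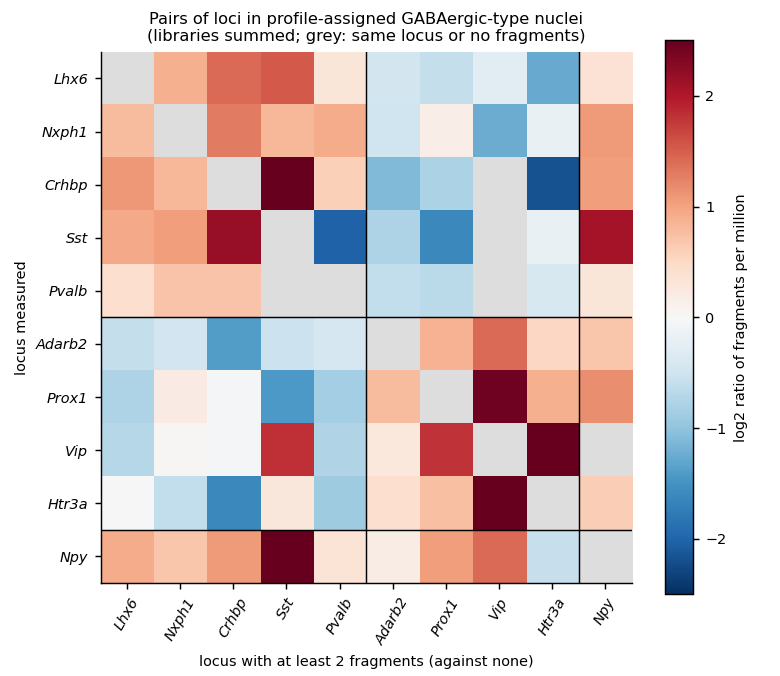
Log2 ratio of the CPM of 1 locus (rows) between profile-assigned GABAergic-type nuclei with at least 2 fragments at another locus (columns) and those with 0 there, libraries summed; red is above and blue below 0, grey is the locus itself or a cell with 0 fragments, and the lines part MGE-type loci, CGE-type loci and Npy. The 2 blocks on the diagonal are red apart from Sst with Pvalb and Pvalb with Sst (0 fragments, grey), and most cells off them are blue.

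Between the libraries, most of the 10 loci did not differ in GABAergic-type nuclei by more than their counting error. With gates, 3 of 10 were past 1.5-fold in either direction, Sst, Vip and Npy, all lower in stroke and none of them with an interval that leaves out 1, where 10.1% of 13994 genes were past it. Of the 7 loci with as many fragments as those genes, 1 was past it, Npy. The count of 3 rose to 6 with promoter windows and fell to 1 when the cut sites of the Tn5 transposase were counted in place of fragments, and with a looser gate. With profile-assigned nuclei 1 of 10 was, Sst, where 4.26% of 17883 genes were. The median log2 ratio of stroke over sham over the 10 loci was -0.21 with gates and 0.07 with profile-assigned nuclei, beside -0.07 and -0.08 over all genes tested. A change in how many nuclei of a subtype are in a class and a change in accessibility within them cannot be told apart in these ratios.

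Lhx6 was higher in the stroke library, 1.496 times with gates (interval 1.08 to 2.07) and 1.19 times with profile-assigned nuclei (interval 1.02 to 1.37). On the profile-assigned MGE-type side it was 1.34 times as high (66.6 against 49.5 CPM, interval 1.07 to 1.68), and Pvalb there 1.36 times (38.2 against 28.1 CPM, interval 1.03 to 1.78). On the gated MGE-type side the ratio was 1.92 for Lhx6 (interval 1.17 to 3.20) and 1.06 for Pvalb (interval 0.604 to 1.84). Within Lhx6 the bin levels pointed opposite ways on the profile-assigned MGE-type side. The start-site bin was at 5.59 CPM in sham (22 fragments) and 2.45 CPM in stroke (5 fragments). The bin 14.0 kb into the gene, chosen for its fragments, was at 3.81 CPM (15 fragments) and 6.85 CPM (14 fragments). No interval was made for these bin ratios between the libraries, so whether they exceed counting error is not shown. Nxph1 was lower in stroke, at 0.864 times with profile-assigned nuclei (interval 0.811 to 0.919) and 0.876 times with gates (interval 0.763 to 1.004). On the profile-assigned sides Nxph1 was at 0.826 times (MGE-type, interval 0.697 to 0.977) and 0.578 times (CGE-type, interval 0.397 to 0.820). On the gated sides it was at 0.703 times (MGE-type, interval 0.526 to 0.932) and 0.747 times (CGE-type, interval 0.4945 to 1.101). Adarb2 was at 0.757 times with gates (interval 0.675 to 0.848), but at 0.971 times with profile-assigned nuclei (interval 0.923 to 1.02), and it turned to 1.70 times with promoter windows (interval 0.566 to 4.68) and 1.02 times after thinning each nucleus to 5000 fragments (interval 0.732 to 1.404). For promoter windows and for thinning the nuclei were gated anew, and thinning left out nuclei under 5000 fragments. Both the size and the direction of the Adarb2 ratio therefore depended on the processing. Over all selected nuclei, whatever their class, the stroke to sham ratio was above 1 for Nxph1 (1.06, interval 1.02 to 1.11) and for Adarb2 (1.095, interval 1.06 to 1.13). On the CGE-type side Adarb2 was lower in stroke in both groupings, at 0.662 times with gates (interval 0.507 to 0.858) and 0.565 times with profile-assigned nuclei (interval 0.436 to 0.725).

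Sst was at 3.30 CPM in profile-assigned sham nuclei (67 fragments) and 1.84 CPM in stroke (22 fragments), a ratio of 0.556 (interval 0.327 to 0.912). On the MGE-type side it was at 6.58 and 2.77 CPM (ratio 0.422, interval 0.158 to 0.966). Over all selected nuclei Sst was at 1.59 CPM in sham (117 fragments) and 1.004 CPM in stroke (53 fragments), a ratio of 0.631 (interval 0.447 to 0.879). The gated ratio of 0.538 rests on 9 and 3 fragments. Crhbp, the locus paired most closely with Sst, was not lower in stroke, at 1.08 times (interval 0.865 to 1.34) with profile-assigned nuclei.

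Pvalb (0.981, interval 0.816 to 1.18), Prox1 (1.03, interval 0.880 to 1.20), Htr3a (1.07, interval 0.803 to 1.41), Vip (1.14, interval 0.700 to 1.84) and Npy (1.19, interval 0.905 to 1.55) had profile-assigned stroke to sham ratios with intervals that hold 1. The gated ratios of Npy (0.59, interval 0.304 to 1.09) and Vip (0.538, interval 0.0937 to 2.16) lay on the other side of 1, as did those of Prox1 and Htr3a (0.968 each), so for these 4 loci the direction turned with the grouping. Over all selected nuclei Prox1 was 1.38 times as high in stroke (interval 1.26 to 1.51). Profile-assigned shares of nuclei in sham and stroke were 1.61% and 3.7% for oligodendrocyte-type, 2.13% and 3.34% for OPC-type, and 0.851% and 8.39% for myeloid-type. Whether these shares bear on the Prox1 ratio was not tested. The share of GABAergic-type nuclei was 0.935 times as high in stroke with gates (interval 0.766 to 1.14) and 0.846 times with profile-assigned nuclei (interval 0.788 to 0.908). Stroke tissue was 1 hemisphere and sham tissue the whole brain, so regional makeup may differ between the libraries along with the surgery. It was not measured.

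**Figure D5:**
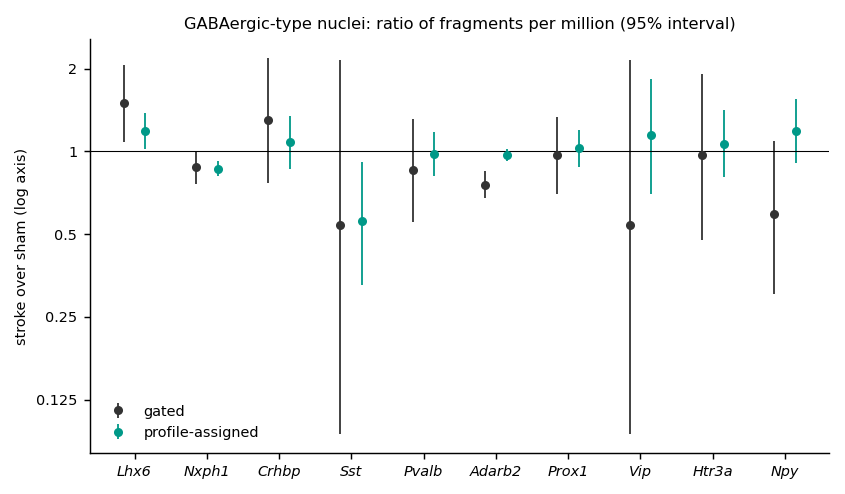
Ratio of CPM in stroke over sham (y axis, log scale) for the 10 loci (x axis) in gated (black) and profile-assigned (green) GABAergic-type nuclei; bars are exact 95% intervals and the line marks 1. The profile-assigned intervals of Lhx6 (above 1), Nxph1 and Sst (below 1) leave out 1, and the gated intervals of Sst and Vip are the widest.

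For each locus the genes outside 100 kb whose log2 CPM followed it most closely over 17 points (gated classes of at least 20 nuclei in each library) were listed, from 16040 genes. Nxph1 and Adarb2 were each other's closest (Pearson r = 0.874), followed by Lgr5 and Grik1 for Nxph1 and by Gad1, the GABA-synthesising enzyme and a gate marker, and Gng4 for Adarb2. Prox1 was closest to Dpyd, Sox10 and Gpr17 (r from 0.856 to 0.876), the last 2 being gate markers of oligodendrocyte precursors. Lhx6 was closest to Kif2a, Slc1a6 and Trim55 (r from 0.813 to 0.830). For the loci with few fragments the closest genes were Cenpt, Noxred1 and Dcst2 (Crhbp), Klhl12, Rpl31 and Noc3l (Sst), Wnk3, Rpl24 and Pla2g3 (Pvalb), Mrpl20, Kcnu1 and Nsun3 (Vip), Fem1b, Dusp9 and Wnt3a (Htr3a), and Mrpl52, Thoc6 and Oit1 (Npy). With profile-assigned nuclei the lists differed: Nxph1 was closest to Kcnh8, Lgr5 and Bend7, Adarb2 to Gad1, Sgcd and Pde1c, and Lhx6 to Pglyrp1, and no gene other than Lgr5 and Gad1 was listed for the same locus in both groupings. Points share libraries and depth, the genes were picked from many, and no p-value is given.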

How the data were processed

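Processed scATAC-seq files of 1 sham and 1 stroke library were used. The authors aligned reads and called cells with Cell Ranger ATAC 2.1.0 (mm10), and the deposited files hold fragments with read counts and per-barcode counts of fragments; 103023027 and 127304829 read pairs per the deposited counts were made into 76959104 and 96465679 fragments. Barcodes called as cells with over 20% of passed fragments in peaks were kept. Fragments overlapping gene bodies plus 2 kb upstream (GENCODE M21) were counted with Python 3.11.15 and scaled per 1000000 fragments. A fragment is counted once per window, and depth limits the sparse loci.

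A nucleus joined a class when its marker fragments exceeded the Poisson expectation (p under 0.01), also without its leading marker (p under 0.05), and 10 times more clearly than for any other class. A side needed at least 2 fragments and a binomial p under 0.25. These p-values only place nuclei. The scoring rule was set after the files were seen, without the values of the 10 loci. Profile assignment used a multinomial likelihood over genes outside 100 kb of any of the 10 loci, with odds of 10. Poisson and conditional binomial intervals (scipy 1.17.1) are exact at 95%. No doublet caller was run; deep nuclei were left out as an alternative. Gating and ratios were run on counts simulated from the profile-assigned classes and sides. Since these were taken as the truth, the simulation cannot show that they are real interneuron classes. All 10 loci are named, with list genes by a fold of 1.5 in both libraries, the 3 most alike genes per locus, and distal bins by fragments on the own side. The members and lists were chosen with earlier results of these data known. Sequences came from RefSeq GRCm38.p6; 9 of 10 loci had a promoter entry.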

Additional observations from a re-analysis of the deposited data

Results flagged for a closer look

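Results for 3 loci pointed in opposite directions in the sham and stroke libraries with gated nuclei, and none of these differences was tested, since each condition had 1 library. Sst was 1.57 times as high on its own side as on the other in sham and 0.238 times in stroke, from 4, 2, 1 and 2 fragments. Htr3a was 0.884 times as high on its own side in sham and 2.36 times in stroke, from 7, 10, 2 and 2 fragments. Vip was 2.44 times as high in GABAergic-type nuclei as in the rest in sham and 0.947 times in stroke, from 9 and 3 fragments in those nuclei. All intervals of the Sst and Htr3a side ratios spanned 1, as did that of Vip in stroke.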

How the results depend on the processing

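No paired analysis was possible because sham and stroke are a single library each. The alternatives were another nucleus filter, promoter windows (2 kb upstream to 500 bp downstream), Tn5 cut sites, scaling to fragments in gene windows, a stricter and a looser gate, sides gated on the other lineage genes, profile assignment, thinning to 5000 fragments per nucleus, leaving out nuclei over the 95th percentile of depth, short fragments (below the length wrapped by a nucleosome), and 1 or 3 fragments to mark a nucleus. The alternative that gates sides on other genes touches only the sides. Where the counts, the scaling, the nuclei or the gate changed, nuclei were gated anew, so the members of the classes changed as well. Thinning left out nuclei under 5000 fragments. With promoter windows, 6 loci were past 1.5-fold between the libraries (3 in the report), 0 of 9 were over 1.5-fold on their own side in both libraries (5), and 2 pairs within and 2 across lineages were above 1 (22 and 7). With promoter windows Crhbp was also at 0.978 in GABAergic-type nuclei over the rest in sham and Adarb2 at 1.70 in stroke over sham. After thinning, 4 loci were over 1.5-fold in GABAergic-type nuclei in both libraries (8), 6 pairs within and 4 across lineages were above 1, the stroke to sham ratio of the GABAergic-type share was 0.703 (0.935), Adarb2 was at 1.02 in stroke over sham, and Prox1 at 0.964 on its own side. Between the libraries, Tn5 cut sites, the looser gate and profile assignment each put 1 locus past 1.5-fold. The stricter gate gave 4 pairs across lineages above 1 and Nxph1 at 0.887 on its own side, and short fragments gave 0.799 for it. Sides gated on the other lineage genes put 2 loci over 1.5-fold in both libraries, and 4 when then reassigned by profile, an alternative added after the data were seen. Promoter windows and thinning leave fewer fragments by construction. The cause of the shifts was not tested for any alternative. The other counts stayed within 1.5 times of those reported. Depth limits Sst, Vip and Htr3a, whose gated sides hold 17 fragments or fewer in any library.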
